A study of Mus musculus with 24 samples.

Results

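The subunit genes of the fast glutamate, GABA, glycine and nicotinic acetylcholine receptors, with those of the metabotropic glutamate receptors, were followed in mouse dorsal root ganglia, the clusters of sensory neuron cell bodies beside the spinal cord. The set took every symbol beginning with Gria, Grik, Grin1, Grin2, Grin3, Grm and a digit, Gabr, Glra, Glrb or Chrn, which gave 65 of the 24421 genes of the RNA-seq table. It held 4 AMPA, 5 kainate, 8 NMDA and 8 metabotropic glutamate receptor genes, 19 GABA-A receptor genes, 5 glycine receptor genes and 16 nicotinic genes. One of those listed under NMDA, Grin1os, is a non-coding RNA whose span lies within Grin1 and is no subunit. The metabotropic GABA receptor genes Gabbr1 and Gabbr2 do not carry these prefixes and were counted among the partner genes.

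All mice were C57BL/6 and the ganglia were those of lumbar levels 4 and 5, from which poly(A) RNA was made into Smart-seq2 libraries. RNA-seq compared 4 groups of 3 libraries: Mettl14cKO ganglia 1 day after sciatic nerve injury (SNLD1), Mettl14cKO naive ganglia, wild-type SNLD1 ganglia and wild-type naive ganglia. The mutants are labelled both as a conditional knockout and as Mettl14-/-, and the driver of the deletion is not given in the labels. The injury is described as a sciatic nerve crush and its counterpart as sham surgery, while the titles say naive, so whether naive mice had surgery is not settled. MeRIP-seq, in which an antibody pulls down fragments carrying the RNA mark N6-methyladenosine (m6A), compared 6 pull-down (IP) with 4 input libraries, all wild type: 3 IP and 2 input libraries at SNLD1, and 3 IP and 2 input libraries from naive mice. miCLIP, which crosslinks that antibody to RNA and reads the base changes left behind, gave 1 list of sites from injured (SNL) and 1 from naive wild-type ganglia. Total counts ranged between 5707837 and 12639160 in RNA-seq and between 846785 and 19653733 in MeRIP-seq.

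AMPA, kainate and NMDA receptors are cation channels opened by glutamate, and metabotropic glutamate receptors signal through G proteins. GABA-A and glycine receptors are chloride channels, and sensory neurons keep enough internal chloride for GABA to depolarise them. Many of these receptors act on the central terminals of sensory neurons, where they set how much transmitter is released onto the spinal cord. Nicotinic receptors are cation channels opened by acetylcholine, with separate neuronal and muscle subunits. Mettl14 encodes a partner of the methyltransferase that writes m6A.

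Several facts of the libraries touch the values that follow. Mettl14 itself had between 14.20 and 18.9 CPM (counts scaled by the library's total times its TMM normalisation factor, as for other CPM values unless stated) in the 6 Mettl14cKO libraries, against 19.4 to 24.1 CPM in the 6 wild-type libraries. These ranges did not overlap, and the counts cover the whole gene, including any part that was not deleted. All 15 sensory neuron markers were detected in every library, with summed levels of 8931 to 11899 CPM in Mettl14cKO and 10486 to 13376 CPM in wild-type ganglia. In MeRIP-seq the IP libraries numbered 3 stood apart. Across genes, their rank correlations with the inputs were 0.848 to 0.937 and those with the other IP libraries 0.690 to 0.787, and the other IP libraries correlated with the inputs at 0.615 to 0.754. The labels do not say that replicates came from separate animals, so p-values measure the spread between these libraries only. In whole ganglia, fewer cells of a type and less RNA per cell cannot be told apart.

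The repertoire of detected subunits was uneven between families. After a filter on low counts 33 of the 65 genes were tested, among 13291 genes in all. All 4 AMPA genes passed, with 3 of 5 kainate, 4 of 8 metabotropic, 10 of 19 GABA-A and 9 of 16 nicotinic genes. Of the NMDA genes only Grin1, the obligatory subunit, and Grin3a, a glycine-binding subunit that lowers calcium flux, passed. The glutamate-binding NMDA subunits Grin2a, Grin2b, Grin2c and Grin2d had at most 6 counts in any library. Of the glycine receptor genes only Glrb passed, the beta subunit that anchors the receptor to its scaffold, and the ligand-binding Glra1, Glra2, Glra3 and Glra4 had at most 8 counts in any library. Chrnd and Gabre had no count in any of the 12 libraries, and 3 counts among all 94423263 make 0.0318 CPM without the TMM factors. The 32 untested members had at most 19 counts in any library.

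Grik1, the main kainate subunit of sensory neurons, had 137 to 263 CPM over the 12 RNA-seq libraries with a median of 207 CPM, and Glrb 151 to 200 CPM with a median of 176 CPM. CPM values are not per transcript length, which was not at hand, so they do not rank genes by their number of transcripts.

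Injury raised 1 subunit gene in both genotypes, Gabra5. It encodes the alpha5 GABA-A subunit, known in brain for extrasynaptic receptors that carry tonic current. It had 26.1, 26.1 and 24.7 CPM in Mettl14cKO SNLD1 libraries, against 12.3, 12.7 and 9.19 CPM in Mettl14cKO naive libraries. In wild type it had 32.8, 34.0 and 33.8 CPM in SNLD1 libraries, against 8.12, 8.32 and 9.27 CPM in naive libraries. Every SNLD1 library was above every naive library. The log2 difference was 1.57 averaged over genotypes (95% interval 1.31 to 1.83, adjusted p = 2.16e-07, edgeR quasi-likelihood test with Benjamini-Hochberg adjustment), a 2.97-fold rise. Within each genotype, the rise was 2.26-fold in Mettl14cKO (adjusted p = 0.00191) and 3.90-fold in wild type (adjusted p = 2.61e-06) by the same edgeR test.

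Gabra5 was the only one of 33 tested members called higher in wild type, where 1.02% of all tested genes were called and 0.948% called higher, and the only one called higher in Mettl14cKO, where 0.685% were called and 0.624% called higher. No member was called lower within a single genotype, beside 0.0752% of genes in wild type and 0.0602% in Mettl14cKO. The rise was smaller in Mettl14cKO by 0.79 on the log2 scale, with a 95% interval for this difference (Mettl14cKO minus wild type) of -1.31 to -0.27. Its unadjusted p was 0.00503 and its adjusted p 0.998, so it did not pass. In that comparison edgeR called 0% of all tested genes and 0 members, with 492 genes and 1 member at an unadjusted p under 0.05, and DESeq2 called 3 genes and 0 members. At SNLD1 the Mettl14cKO libraries lay between 24.7 and 26.1 CPM, all below the wild-type libraries at 32.8 to 34.0 CPM. In naive ganglia the genotypes overlapped, with 9.19 to 12.7 CPM in Mettl14cKO and 8.12 to 9.27 CPM in wild type.

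Gabra5 lies at chr7:57407669-57591016 on the minus strand (GRCm38.p6 annotation, the build mm10 of the files), beside Gabrg3. Its span overlaps those of other annotated genes, and whether counting used strand is not given in the sources used here. Gabrg3 had at most 4 counts in any library and was not tested.

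**Figure D1:**
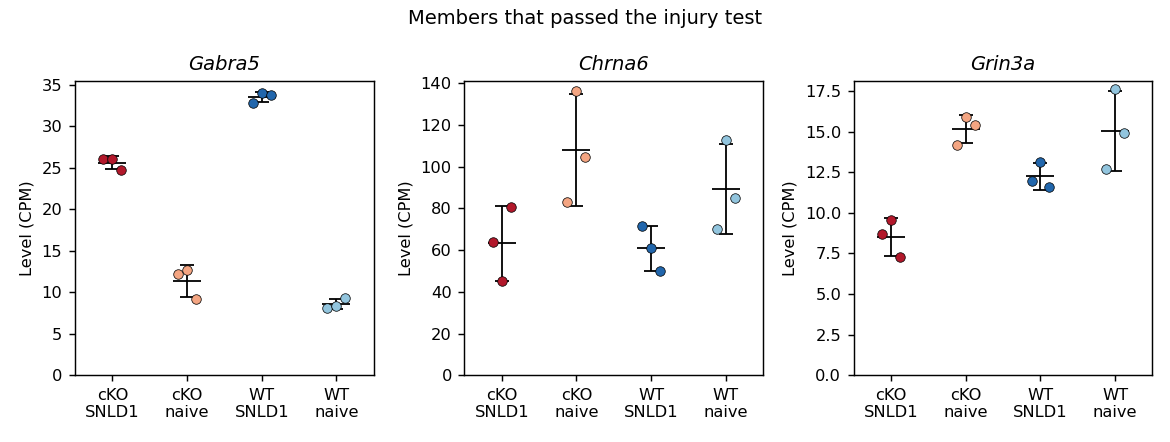
Level in CPM of Gabra5, Chrna6 and Grin3a in each RNA-seq library (points), with group mean and SD (bars, 3 libraries per group), for Mettl14cKO SNLD1, Mettl14cKO naive, wild-type SNLD1 and wild-type naive ganglia. Gabra5 lies between 24.7 and 34.0 CPM in the SNLD1 libraries and between 8.12 and 12.7 CPM in the naive ones, while Chrna6 and Grin3a average lower at SNLD1 in both genotypes, with overlapping libraries in wild type.

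Averaged over genotypes, injury also lowered Chrna6 and Grin3a, which made 3 of 33 members called. In that comparison 2.56% of all tested genes were called, 2.02% higher and 0.542% lower. Chrna6 encodes the alpha6 nicotinic subunit, which in mouse sensory neurons has been tied to mechanical pain sensitivity. It had 63.9, 45.0 and 80.7 CPM in Mettl14cKO SNLD1 libraries, against 83.2, 136 and 105 CPM in Mettl14cKO naive libraries. In wild type it had 71.6, 61.1 and 49.9 CPM in SNLD1 libraries, against 70.2, 113 and 84.8 CPM in naive libraries. The groups were apart in Mettl14cKO by a small gap and overlapped in wild type. The log2 difference was -0.66 (95% interval -1.01 to -0.32, adjusted p = 0.0354, edgeR quasi-likelihood test). The call was lost without 8 of the 12 libraries left out one at a time and without both wild-type libraries numbered 2, where the adjusted p was 0.126.

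Chrnb3, the beta3 subunit that joins alpha6 in receptors, lies beside Chrna6 on chromosome 8. It had 6.22, 3.52 and 8.70 CPM in Mettl14cKO SNLD1 libraries, against 6.73, 9.25 and 10.7 CPM in Mettl14cKO naive libraries. In wild type it had 6.29, 6.86 and 10.7 CPM in SNLD1 libraries, against 11.6, 14.2 and 6.69 CPM in naive libraries. Its groups overlapped, and a log2 difference of -0.48 did not pass (95% interval -0.98 to 0.02, adjusted p = 0.418, edgeR).

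Grin3a had 8.70, 9.58 and 7.29 CPM in Mettl14cKO SNLD1 libraries, against 14.2, 15.9 and 15.4 CPM in Mettl14cKO naive libraries. In wild type it had 11.96, 13.2 and 11.6 CPM in SNLD1 libraries, against 12.7, 17.6 and 14.9 CPM in naive libraries. The Mettl14cKO groups were clearly apart and the wild-type groups overlapped. The averaged log2 difference was -0.56 (95% interval -0.86 to -0.27, adjusted p = 0.0366, edgeR quasi-likelihood test). It was -0.83 in Mettl14cKO (adjusted p = 0.0744) and -0.29 in wild type (adjusted p = 0.884), and neither passed alone in edgeR. A test of the difference between those effects gave an unadjusted p of 0.0714 and an adjusted p of 0.998 (edgeR). The averaged call was lost without 9 of the 12 libraries left out in turn and without both wild-type libraries numbered 2 (adjusted p = 0.0696).

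Those 2 wild-type libraries had the highest summed levels of neutrophil markers, 1587 CPM at SNLD1 and 1357 CPM in naive ganglia, against at most 737 CPM in any other RNA-seq library. All 5 neutrophil markers in the table were detected in each library, and their part in the Chrna6 and Grin3a results was not tested beyond leaving those libraries out. Without them Gabra5 was still called, at an averaged log2 difference of 1.55 (adjusted p = 6.30e-06, edgeR). Of the 15 sensory neuron markers 1 was called after injury, Isl1, a transcription factor of sensory neurons, at a log2 difference of -0.37 (adjusted p = 0.0427, edgeR). Their summed level was 9270 to 13115 CPM in SNLD1 libraries and 8931 to 13376 CPM in naive libraries, ranges that overlapped.

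The remaining glutamate receptor genes lay mostly below 0 after injury without passing. Gria2, the AMPA subunit that blocks calcium entry, had 60.4, 42.4 and 76.3 CPM in Mettl14cKO SNLD1 libraries, against 73.8, 82.8 and 86.4 CPM in Mettl14cKO naive libraries. It had 50.4, 72.9 and 56.6 CPM in wild-type SNLD1 libraries, against 78.0, 92.2 and 67.9 CPM in wild-type naive libraries. The ranges overlapped and the averaged log2 difference was -0.42 (95% interval -0.72 to -0.12, adjusted p = 0.161, edgeR).

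Gria4, another AMPA subunit, had 16.9, 16.9 and 15.4 CPM in Mettl14cKO SNLD1 libraries, against 18.5, 31.4 and 22.8 CPM in Mettl14cKO naive libraries. In wild type it had 15.2, 17.6 and 15.0 CPM in SNLD1 libraries, against 17.7, 22.1 and 18.1 CPM in naive libraries. All 6 SNLD1 libraries, at 15.0 to 17.6 CPM, were below all 6 naive libraries, at 17.7 to 31.4 CPM, by a narrow gap. How many of all tested genes separate in this way was not counted. Its log2 difference of -0.42 did not pass either (95% interval -0.71 to -0.12, adjusted p = 0.162, edgeR).

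Gria1 stood at -0.53 on the log2 scale (adjusted p = 0.307) and Gria3 at -0.003 (95% interval -0.26 to 0.26). All 4 tested metabotropic genes were below 0, Grm4, Grm5, Grm7 and Grm8, with log2 differences of -0.81, -0.56, -0.23 and -0.26. Grm4, Grm7 and Grm8 encode presynaptic receptors that restrain transmitter release, and Grm5 a receptor that raises intracellular calcium. None passed, and the interval of Grm4 reached from -1.83 to 0.21. The kainate genes Grik1, Grik2 and Grik3 lay between -0.09 and 0.11.

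Among GABA-A genes other than Gabra5, Gabrb2 came nearest, at a log2 difference of -0.40 (95% interval -0.66 to -0.14, adjusted p = 0.111, edgeR). It encodes a beta subunit and had 33.8 to 59.0 CPM with a median of 46.5 CPM in the 6 SNLD1 libraries, against 52.9 to 73.4 CPM with a median of 57.8 CPM in the 6 naive libraries. Over all 33 members the median log2 difference was -0.10, with 9 above 0, beside a median of -0.0065 over all tested genes, of which 48.8% were above 0. In the injury comparison 7 members had an unadjusted p under 0.05, against 13.0% of all tested genes.

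**Figure D2:**
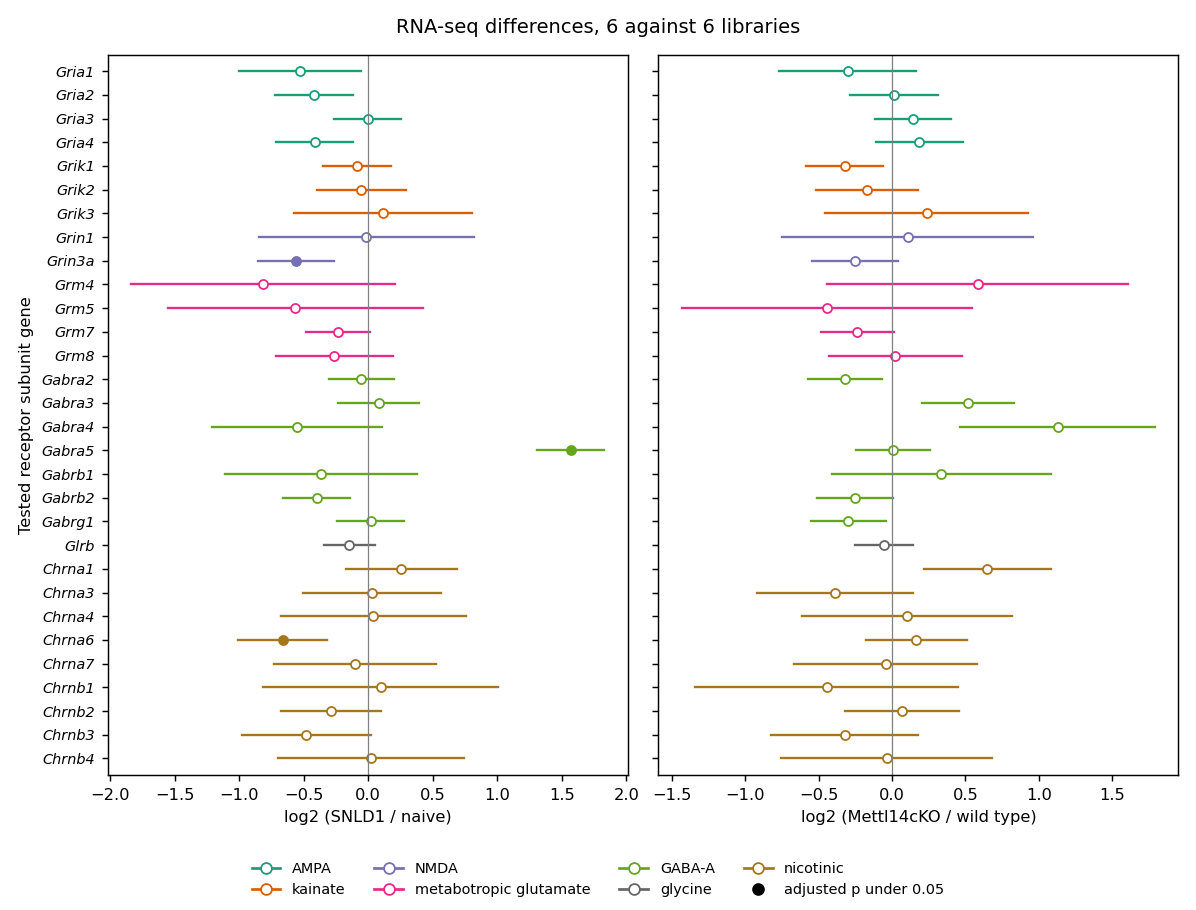
log2 differences of 30 of the 33 tested subunit genes between SNLD1 and naive libraries, averaged over genotypes (left), and between Mettl14cKO and wild-type libraries, averaged over conditions (right), with 95% intervals; filled points passed an adjusted p of 0.05. On the left Gabra5 stands at 1.57, and Chrna6 (-0.66) and Grin3a (-0.56) are the other filled points; on the right no point is filled and Gabra4, at 1.13, is the farthest from 0.

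Genotype was called for no member. Averaged over conditions edgeR called 0 of 33 members between Mettl14cKO and wild type, where it called 3.33% of all tested genes, 2.04% higher and 1.29% lower. It called 0 members at SNLD1, where 1.46% of all genes were called, 0.948% higher and 0.512% lower. In naive ganglia it called 0 members, where 0.286% of all genes were called, 0.173% higher and 0.113% lower. At an unadjusted p under 0.05 there were 7 members averaged over conditions, where 17.0% of all genes were, 9 at SNLD1 (14.4% of all genes) and 4 in naive ganglia (7.599% of all genes). DESeq2 called 3 members averaged over conditions, Chrna1, Gabra3 and Gabra4, where it called 647 of 13291 genes. It called 0 members at SNLD1 and in naive ganglia, where it called 416 and 77 genes. The median over members was -0.0036 on the log2 scale, beside -0.0013 over all genes.

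Gabra4, an alpha subunit of extrasynaptic GABA-A receptors in brain, had 6.57, 2.40 and 7.44 CPM in Mettl14cKO SNLD1 libraries, against 2.61, 2.74 and 1.95 CPM in wild-type SNLD1 libraries. In naive ganglia it had 4.18, 8.38 and 10.8 CPM in Mettl14cKO, against 2.80, 6.14 and 2.36 CPM in wild type. One Mettl14cKO library and 1 wild-type library made the groups overlap. The averaged log2 difference was 1.13 (95% interval 0.47 to 1.79, adjusted p = 0.0575, edgeR), just short of the threshold, and 0.0171 by DESeq2. The span of Gabra4 overlaps the start of Gabrb1 on the other strand of chromosome 5.

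Gabra3, an alpha subunit on the X chromosome, had 16.5, 17.2 and 21.9 CPM in Mettl14cKO SNLD1 libraries, against 10.7, 14.9 and 15.0 CPM in wild-type SNLD1 libraries. In naive ganglia it had 16.3, 21.6 and 17.4 CPM in Mettl14cKO, against 10.8, 14.9 and 11.3 CPM in wild type. All 6 Mettl14cKO libraries, at 16.3 to 21.9 CPM, were above all 6 wild-type libraries, at 10.7 to 15.0 CPM. The gene was described for its small p, and the share of all genes separated in this way was not counted. Its log2 difference of 0.52 had a 95% interval of 0.21 to 0.83 and an adjusted p of 0.0645 in edgeR, and 0.0369 in DESeq2.

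Chrna1, the ligand-binding subunit of the muscle nicotinic receptor, had 127, 151 and 85.6 CPM in Mettl14cKO SNLD1 libraries, against 94.1, 68.1 and 60.4 CPM in wild-type SNLD1 libraries. In naive ganglia it had 156, 67.2 and 68.9 CPM in Mettl14cKO, against 75.1, 48.4 and 70.3 CPM in wild type. The groups overlapped, and the log2 difference of 0.65 (95% interval 0.22 to 1.08) had an adjusted p of 0.0988 in edgeR and 0.0442 in DESeq2. Of the other muscle subunits, Chrnb1 had 95 counts over the 12 libraries together, Chrne 33, Chrng 5 and Chrnd 0. The 9 skeletal muscle markers of the list summed to between 5.59 and 15.4 CPM in any RNA-seq library, and 3 of the 9 passed the filter on low counts.

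**Figure D3:**
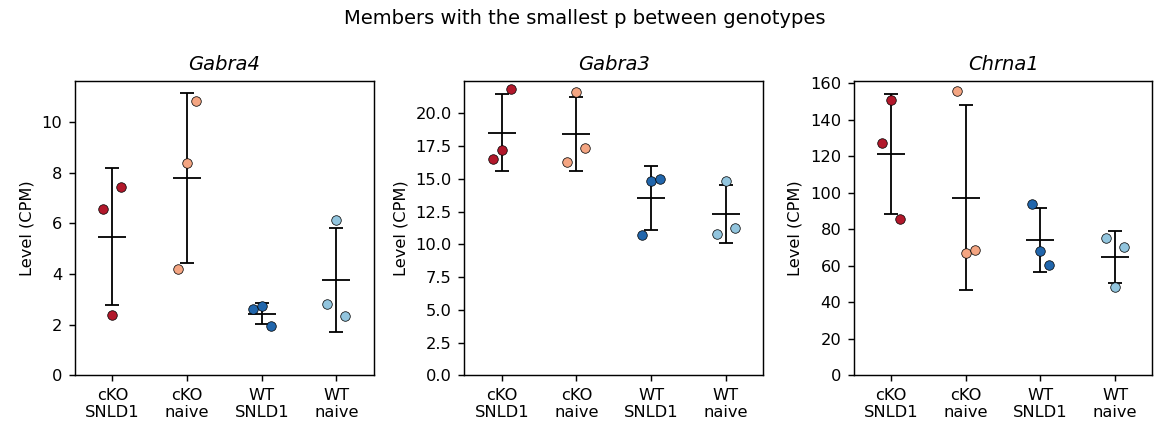
Level in CPM of Gabra4, Gabra3 and Chrna1 in each RNA-seq library (points), with group mean and SD (bars, 3 libraries per group), for Mettl14cKO SNLD1, Mettl14cKO naive, wild-type SNLD1 and wild-type naive ganglia. The Gabra3 ranges of Mettl14cKO (16.3 to 21.9 CPM) and wild type (10.7 to 15.0 CPM) are apart, and those of Gabra4 and Chrna1 overlap.

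Other members did not pass between genotypes in edgeR either. The highest metabotropic glutamate gene stood at 0.58, and the lowest nicotinic and metabotropic genes both at -0.44. Gabra2 stood at -0.32 (adjusted p = 0.172), Gabrg1 at -0.30 (adjusted p = 0.217) and Grik1 at -0.32 (adjusted p = 0.185). Grik1 had 137 to 224 CPM with a median of 179 CPM in Mettl14cKO, against 182 to 263 CPM with a median of 234 CPM in wild type. Markers of other cells differed along with genotype. The sensory neuron neurofilament genes Nefh, Nefl and Nefm fell by 0.83, 0.79 and 0.65 on the log2 scale, and the satellite glia marker Fabp7 fell by 1.34. The fibroblast markers Dcn and Pdgfra rose by 0.74 and 1.03, the Schwann cell marker Ncmap by 0.87 and the oligodendrocyte marker Cldn11 by 1.16, with adjusted p between 0.00012 and 0.0418 over these 8 genes in edgeR. Over each whole list, 3 of 5 fibroblast, 3 of 7 Schwann cell, 2 of 6 satellite glia and 3 of 15 sensory neuron markers stood above 0, with medians of 0.22, -0.03, -0.17 and -0.17. In lists with no called gene, 0 of 5 tested neutrophil, 6 of 7 endothelial and mural and 5 of 7 macrophage markers stood above 0. Their medians were -1.03, 0.45 and 0.32. For skeletal muscle it was 2 of 3 tested (median 0.15) and for astrocytes 1 of 3 (median -0.04). The neutrophil list summed to 169 to 737 CPM in Mettl14cKO and 155 to 1587 CPM in wild type. The fibroblast list summed to 1976 to 4277 CPM in Mettl14cKO and 1696 to 2142 CPM in wild type, and the satellite glia list to 891 to 2297 CPM in Mettl14cKO and 1575 to 2292 CPM in wild type. The Schwann cell list summed to 3380 to 4110 CPM in Mettl14cKO and 2787 to 4928 CPM in wild type. Of the 5 oligodendrocyte markers Cldn11 was the 1 tested, and between 1 and 3 of the 5 were detected in each RNA-seq library. That list summed to 11.5 to 24.4 CPM in Mettl14cKO and 5.52 to 11.3 CPM in wild type. The part of these markers in the subunit values was not tested.

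Partner genes of the receptors were described from a list of 86, of which 85 were in the table and 58 were tested. After injury, averaged over genotypes, 0 were called in edgeR in either direction, beside 2.56% of all tested genes. An unadjusted p under 0.05 was found for 9, beside 13.0% of all genes. DESeq2 called 471 of 13291 genes and 1 partner, Gabarap, whose protein binds GABA-A gamma subunits. In edgeR Gabarap stood at 0.40 on the log2 scale, with an adjusted p of 0.0899. Of the 58, 26 stood above 0, and the median log2 difference was -0.08. Between genotypes, averaged over conditions, 0 were called higher and 1 lower, beside 2.04% and 1.29% of all tested genes. An unadjusted p under 0.05 was found for 7, beside 17.0% of all genes. Of the 58, 23 stood above 0, with a median of -0.04. DESeq2 called 647 of 13291 genes and 1 partner, the same gene that edgeR called lower. That gene was Lynx1, whose membrane-tethered protein binds nicotinic receptors and restrains them, with a log2 difference of -0.49 (95% interval -0.73 to -0.25, adjusted p = 0.0255, edgeR). The list holds auxiliary subunits, scaffolds, transmitter transporters and supply enzymes, and Gabbr1 and Gabbr2.

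MeRIP-seq asked how strongly each transcript was drawn into the m6A pull-down. Of the members 38 were tested among 14705 genes, and edgeR called 0 of them in each of 5 comparisons, where 0% of all genes were called. An unadjusted p under 0.05 was found for 2 members for IP over input averaged over conditions, where 17.2% of all genes had one, for 2 in naive ganglia (6.22% of all genes) and for 0 at SNLD1 (4.13%). It was found for 0 in the change of enrichment with injury (0.204%) and for 1 in SNLD1 over naive in input (0.857%). DESeq2 called 1 of the 38 members, Grik4, for IP over input averaged over conditions, where it called 835 of 14705 genes. It called 0 members in the others. There it called 5 genes in naive ganglia, 0 at SNLD1, 0 for the change of enrichment and 1 in input. Same-numbered IP libraries of the 2 conditions deviated together from their group means (correlations of 0.68, 0.47 and 0.73), and so did same-numbered inputs (0.41). IP and input libraries of 1 number did not (-0.29 to -0.02). With the replicate number as a block edgeR called 2601 of 14705 genes for IP over input averaged, 611 higher in IP and 1990 lower. It called 1078 in naive ganglia (48 higher and 1030 lower) and 936 at SNLD1 (44 higher and 892 lower). Without both IP libraries numbered 3, an alternative chosen after seeing the data, edgeR called 1892 of 14522 genes averaged, 341 higher and 1551 lower. It called 259 in naive ganglia (2 higher and 257 lower) and 117 at SNLD1 (0 higher and 117 lower). Glrb, lower in IP when averaged, was the 1 of 38 members called with the block, averaged and in naive ganglia. It was also the 1 of 38 called averaged without those libraries. The median standard error over members was 0.725 for the averaged enrichment, beside 0.164 for the averaged injury difference in RNA-seq. Averaged over conditions, 24 of 38 members were above 0 with a median log2 of 0.41, beside 52.7% and 0.10 for all genes.

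Grik4, a high-affinity kainate subunit, had 23.6, 3.96 and 5.13 CPM in SNLD1 IP libraries, against 2.38 and 2.21 CPM in SNLD1 inputs. Naive ganglia gave 23.5, 2.83 and 5.69 CPM in IP libraries, against 1.16 and 0.809 CPM in inputs. Every IP library was above every input, by a margin of few reads. The lowest IP value, in naive IP library 2, was 3 counts, and the highest input value, in SNLD1 input 1, was 2 counts. Those libraries held 846785 and 927807 counts in total. The averaged log2 of IP over input was 2.86 (95% interval 0.88 to 4.85, unadjusted p = 0.00751 in edgeR), with an adjusted p of 0.215 in edgeR and 0.0191 in DESeq2.

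Glrb ran the other way, with 36.8, 25.5 and 69.2 CPM in SNLD1 IP libraries, against 153 and 86.8 CPM in SNLD1 inputs. Naive ganglia gave 47.8, 8.48 and 77.2 CPM in IP libraries, against 179 and 156 CPM in inputs. All IP libraries were below all inputs. The averaged log2 was -1.67 (95% interval -2.95 to -0.39, adjusted p = 0.223, edgeR), and without both IP libraries numbered 3 it was -2.23 with an adjusted p of 0.0277. With a replicate block it was -2.37 (adjusted p = 0.00775, edgeR).

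Gabra5 had 72.5, 17.5 and 21.0 CPM in SNLD1 IP libraries, against 25.0 and 7.12 CPM in SNLD1 inputs. Naive ganglia gave 27.6, 35.8 and 11.2 CPM in IP libraries, against 10.04 and 5.67 CPM in inputs. IP and input ranges overlapped at SNLD1 and not in naive ganglia. The averaged log2 of IP over input was 1.46 (95% interval -0.04 to 2.95, adjusted p = 0.298, edgeR). In the inputs alone SNLD1 over naive was 0.98 (adjusted p = 1, edgeR), from 2 libraries per condition, beside 1.96 in the wild-type RNA-seq libraries. Its enrichment changed with injury by -0.39 on the log2 scale, with a standard error of 1.35.

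Chrna1 rested on the IP libraries numbered 3. It had 2.47, 0 and 55.9 CPM in SNLD1 IP libraries, against 2.38 and 3.80 CPM in SNLD1 inputs. Naive ganglia gave 0.546, 0.943 and 37.8 CPM in IP libraries, against 2.58 and 1.11 CPM in inputs. Only the libraries numbered 3 exceeded the inputs by more than a few CPM. The averaged log2 was 2.72 with all libraries and -1.31 without both libraries numbered 3 (adjusted p = 0.304 and 0.499 in edgeR).

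The families are described by where their members lay, averaged over conditions. Of the 5 kainate genes 4 were above 0, with a median log2 of 1.25, and Grik1 was the one below, at -0.37. Of the AMPA genes 3 of 4 were above 0 (median 0.46), of the NMDA genes 2 of 2 (0.88) and of the metabotropic genes 4 of 5 (0.59). The 10 tested GABA-A genes split 5 above and 5 below with a median of -0.01, and the 11 nicotinic genes 6 above and 5 below with a median of 0.26. No test between families was made, so these values do not show that families differ.

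**Figure D4:**
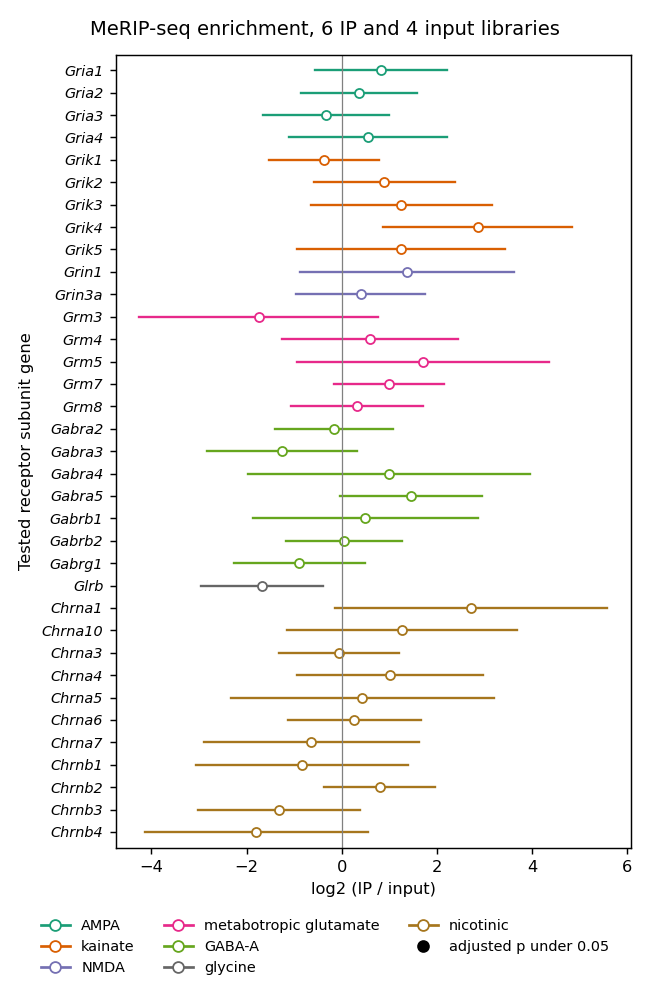
log2 of IP over input in MeRIP-seq, averaged over SNLD1 and naive ganglia, for 35 of the 38 tested subunit genes, with 95% intervals. No point is filled, since none passed an adjusted p of 0.05, and Grik4 (2.86) and Glrb (-1.67) are the genes drawn whose intervals leave out 0.

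The miCLIP lists place single m6A bases in these genes, from 1 library per condition and so with no replicate check. Leaving out Grin1os, whose 2 sites are those of Grin1 on the opposite strand, the subunit genes held 60 entries at 56 positions, 34 from the SNL list of 18677 sites and 26 from the naive list of 14446 sites. They fell in 15 of 64 genes, and 4 positions were in both lists. All 5 kainate genes had a site, with 19 positions together, while 1 of 19 GABA-A genes did, Gabra3 with 1 position. Nicotinic genes held 17 positions in 4 of 16 genes, and the NMDA subunits 9 positions in Grin1 and Grin3a. Gria4 was the only AMPA gene with sites, Grm7 the only metabotropic one and Glrb the only glycine receptor gene. Gabra5 had no listed site.

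Of the 33 members tested in RNA-seq, 33.3% had a site in the SNL list, where 36.9% of all tested genes had one, and 27.3% in the naive list, where 31.9% of all did. In either list it was 13 of 33 members, or 39.4%, against 44.3% of tested genes, so the members as a whole were near the background.

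The positions present in both lists are shown because they are the only ones seen in both libraries. Each is given by its mm10 position and the 5 deposited bases read 5′ to 3′ on the minus strand, where the capital A marks the called base.
Gria4 chr9:4420194: agAca
Grik5 chr7:25010096: ggAcc
Grik5 chr7:25010737: agAcc
Chrna7 chr7:63099444: ggAcc
At the Gria4 base 1 of 5 SNL reads and 1 of 4 naive reads were mutated. At the first Grik5 base it was 1 of 5 SNL reads and 1 of 10 naive reads, and at the second 2 of 4 SNL reads and 1 of 3 naive reads. Chrna7, the alpha7 subunit that forms receptors by itself, had 1 of 2 SNL reads and 2 of 5 naive reads mutated at its shared base. All 4 have G before and C after the called A, as the m6A consensus allows. So did 82.7% of all SNL sites and 83.5% of all naive sites, while 17.3% and 16.5% had A before and C after. This context therefore does not set the 4 sites apart.

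Grik5, a high-affinity kainate subunit, and Chrnb2, the beta subunit of the main neuronal nicotinic receptors, held the most entries. Grik5 had 12, 6 in each list, at 10 positions in its span of 65.8 kb at chr7:25009849-25075694. Of these entries 9 lay within 1 kb of the gene's end on the minus strand, between 210 and 888 bases from it. Its RNA-seq level was low, at most 11 counts in any library, and it was not tested there. Its MeRIP-seq log2 of IP over input was 1.25 without passing. Chrnb2 had 11 positions, 7 in the SNL list and 4 in the naive list, in a span of 11.2 kb at chr3:89753448-89764632. None of these was shared, and 8 of the 11 lay within 3 kb of the end of the gene. The 5 positions that lie closest together are shown, since they put SNL and naive entries close to each other.
Chrnb2 chr3:89755324, SNL: ggAcc
Chrnb2 chr3:89755334, SNL: ggAca
Chrnb2 chr3:89755360, naive: ggAca
Chrnb2 chr3:89755536, naive: ggAct
Chrnb2 chr3:89755549, naive: ggAct
Chrnb2 did not pass in RNA-seq, at a log2 difference of -0.29 after injury (95% interval -0.68 to 0.10), and stood at 0.80 for IP over input (95% interval -0.37 to 1.96).

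Across the members whose strand the reference gives, 51 of 53 entries lay on the strand of the gene, and the other 2 were those of Grin1os. Of those 51, 33.3% were within 1 kb and 62.7% within 3 kb of the gene's end, beside 17.6% and 42.9% of 25885 gene and site pairs over all genes. Grik5 held 9 of the 17 entries within 1 kb, and without it the shares were 20.5% and 59.0% of 39 entries. The given reference holds gene spans only, so exons, introns and untranslated regions were not assigned. Sites with GGAC made up 51.4% of 35 SNL entries (exact 95% interval 34.0% to 68.6%) and 59.3% of 27 naive entries (38.8% to 77.6%), Grin1os included, beside 37.97% and 39.1% of all sites in these lists. The intervals cover counting error only, and both include the value of all sites in their list.

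Support for single sites was thin. Of the 60 entries 93.3% rested on 1 mutated read, 4 on 2 mutated reads and 0 on 3 or more, with between 2 and 10 reads at a site. Over all sites the share on 1 mutated read was 89.7% in the SNL list and 90.2% in the naive list. For 27 entries it was 1 mutated of 2 reads, a share whose exact 95% interval runs between 1.26% and 98.7%. Over all sites the highest mutated share was 0.5 in both lists, the share of these 27 entries. The interval takes no account of such a limit on the listed sites. At this depth a site in 1 list and not in the other does not show a difference. Grik1 had 3 positions in the naive list and 0 in the SNL list, and Grm7 1 and 3, each from 2 to 5 reads.

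**Figure D5:**
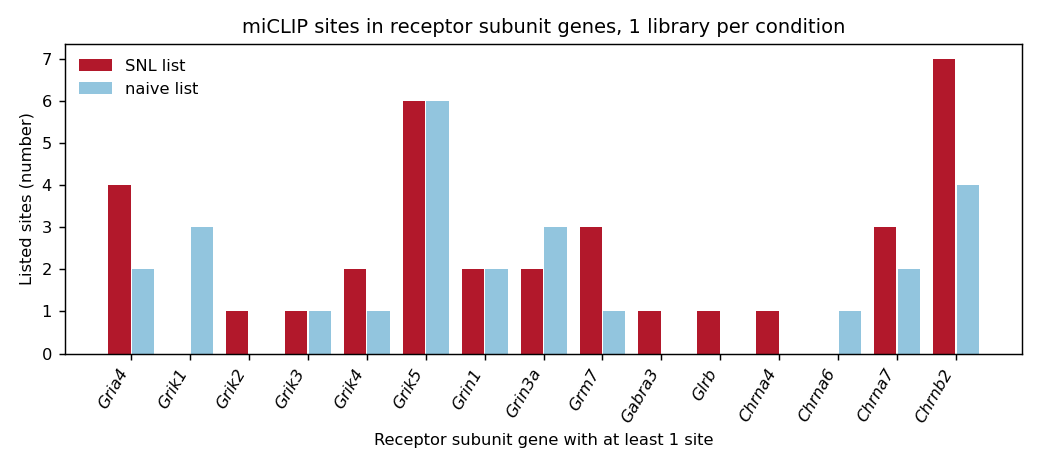
Number of miCLIP sites listed in each subunit gene with at least 1 site, in the SNL list (red) and the naive list (blue), 1 library per condition, ordered by family. Grik5 holds 6 in each list and Chrnb2 holds 7 in the SNL list and 4 in the naive list.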

How the data were processed

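The authors deposited raw read counts per gene for RNA-seq and MeRIP-seq, and for miCLIP the mutated share of the reads at each site. Trimmomatic, STAR, DESeq2 and the build mm10 are named in the submitters' processing notes, without a role or version. Members and gene lists were chosen with earlier results of these data known. Counts were tested with edgeR 4.0.16 in R 4.3.3 (filterByExpr, TMM, glmQLFit and glmQLFTest) over the whole table, 13291 genes in 12 RNA-seq and 14705 genes in 10 MeRIP-seq libraries, each fitted as 4 groups. Benjamini-Hochberg adjusted p under 0.05 was called. The fits were tested on simulated data. CPM is the count scaled by the library's total times its TMM factor. A site belongs to a gene when it falls in its RefSeq span (GRCm38.p6). The deposited bases matched the RefSeq promoter sequence at 793 of 793 sites that fall in one. Binomial intervals are exact at 95% and cover counting error only. Described genes are members called, the smallest p and the highest level of each family, the members with the most sites and the muscle receptor subunits; partners and markers are named where called. Gabrb2, Gabra2, Gabrg1, Gabrr2, Grm5 and the remaining genes with values were added after their values were seen. Same-numbered IP libraries of the 2 conditions deviated together (correlations 0.68, 0.47 and 0.73), and so did same-numbered inputs (0.41). IP and input libraries of 1 number did not (-0.29 to -0.02), so no replicate block was used in the main fit. Some members are counted in the totals but not reported here.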

Additional observations from a re-analysis of the deposited data

How the results depend on the processing

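The Gabra5 rise kept its direction and call in all alternatives run, with averaged log2 differences between 1.49 and 1.61. Chrna6 kept its direction but lost its call in 10 alternatives (adjusted p up to 0.126), and Grin3a in 11 (up to 0.104). Leaving out single libraries gave 1 to 4 members called after injury averaged over genotypes (Gabrb2 and Gria2 entered without Mettl14cKO SNLD1 replicate 3), and 0 to 2 between genotypes averaged over conditions (Gabra4, Gabra3 or Chrna1). Without both wild-type libraries numbered 2, chosen after seeing the data, 1 member was called after injury (Gabra5) and 2 between genotypes (Gabra3 and Gabra4), each averaged. Of all 13447 genes tested there, 347 were called after injury and 599 between genotypes.

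DESeq2 called 2 members after injury in Mettl14cKO (with Grin3a), 3 between genotypes (Chrna1, Gabra3 and Gabra4) and 1 for IP over input (Grik4). Over all genes it called 189, 647 and 835 in these comparisons, the last 2 averaged. With no filter on low counts, 3 members were called between genotypes averaged over conditions and 3 at SNLD1 (Chrna1, Gabra4 and Gabrr2 in both), 2 after injury in Mettl14cKO, and Gria2 in place of Grin3a after injury averaged over genotypes. The RNA-seq replicate numbers did not pair the libraries throughout, with correlations of deviations from group means between -0.06 and 0.57. The highest were 0.57 for the wild-type libraries numbered 2 and 0.35 for the Mettl14cKO libraries numbered 3, naive with SNLD1. With a replicate block 2 members were called between genotypes averaged over conditions (Chrna1 and Gabra3), where 594 of 13291 genes were called. That fit called 2 members after injury in Mettl14cKO, where 133 genes were called, and 2 after injury averaged, where 400 were. For IP over input the block called Glrb, averaged and in naive ganglia (1 member each), where 2601 and 1078 of 14705 genes were called. Without both IP libraries numbered 3, also chosen after seeing the data, Glrb was the 1 member called, averaged, where 1892 of 14522 genes were called. The cause of these changes was not tested.

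Some values changed sign. The genotype difference of Grin1, 0.11, became -0.27 without both wild-type libraries numbered 2, and ranged from -0.0917 to 0.31 when single libraries were left out, and was below 0 without Mettl14cKO SNLD1 (-0.0917), wild-type naive (-0.0897) or wild-type SNLD1 replicate 2 (-0.0732). That of Grik2 became 0.0075 without both wild-type libraries numbered 2. The averaged IP enrichment of Chrna1, 2.72 with all libraries and so not near 0, became -1.31 without both IP libraries numbered 3. It became -1.55 with a replicate block, which leaves no input beside those libraries. Requiring 3 mutated reads left 0 miCLIP sites.

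Whole-table counts moved as well. DESeq2 called 211 genes after injury in wild type (136 in edgeR), 189 in Mettl14cKO (91), 77 between genotypes in naive ganglia (38), 416 at SNLD1 (194) and 3 for the difference of injury effects (0). With no filter these were 256, 281, 191, 570 and 24. For injury and genotype averaged (340 and 442 in edgeR), DESeq2 called 471 and 647 genes, and the fit with no filter 560 and 857. Fitted on the compared libraries alone, genotype at SNLD1 gave 126 (194). IP over input averaged gave 835 in DESeq2, 463 with no filter, 2601 with the block and 1892 without both IP libraries numbered 3 (0 in edgeR with all libraries). In naive ganglia those settings gave 5, 9, 1078 and 259 genes, and at SNLD1 0, 6, 936 and 117. Leaving out 1 library gave between 12 and 507 genes over the RNA-seq comparisons other than the difference of effects (0 to 1), and 0 to 497 for IP over input averaged. Of the members, 32 had too few counts to be tested in RNA-seq.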

Other observations

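Gabrr2, a rho subunit of GABA-A receptors known from retina, was below the filter on low counts but had more counts in Mettl14cKO libraries. It had 7, 16 and 7 counts in Mettl14cKO SNLD1 libraries, against 0, 1 and 3 in wild-type SNLD1 libraries. In naive ganglia it had 2, 5 and 4 counts in Mettl14cKO, against 0, 0 and 5 in wild type. It was picked out after its values were seen.

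Chrna1 differed between the assays in wild type. At SNLD1 the 2 MeRIP-seq inputs had 2.38 and 3.80 CPM and the 3 RNA-seq libraries 94.1, 68.1 and 60.4 CPM. In naive ganglia it was 2.58 and 1.11 CPM in inputs and 75.1, 48.4 and 70.3 CPM in RNA-seq. The IP libraries numbered 3, at 55.9 CPM at SNLD1 and 37.8 CPM in naive ganglia, lay closer to RNA-seq than to the inputs.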
